A study of Mus musculus with 6 samples.

Results

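Cd300e, Emr4, Treml4, Ear2, Spn, Ly6c2, Plac8, Ncf1 and Ptprc are 9 genes of blood monocytes and other leukocytes, and they were followed here in brain endothelial cell preparations from GLUT1EC-/- mice, with WT littermates for comparison. They are 9 of the 23329 gene symbols counted, chosen by their measured levels: earlier values of the same 6 libraries, GLUT1EC-/- against WT, had drawn attention to them. The rule puts 5 of them with non-classical monocytes (Cd300e, Emr4, Treml4, Ear2 and Spn), to be compared with classical and general leukocyte genes. It does not say which of the other 4 belong to which class. Here 2 were put with classical monocytes (Ly6c2 and Plac8) and 2 with leukocytes in general (Ptprc and Ncf1, a phagocyte gene). Since the contrast between genotypes served to choose them, their own differences are a description, without a test. All 9 had enough counts to enter the fit over all genes.

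RNA was sequenced from uncultured endothelial cells that had been isolated by magnetic sorting (MACS) from the brains of C57BL/6 mice 8 weeks old. The 3 libraries labelled GLUT1EC-/- come from mice that, by the label, lack Glut1 (Slc2a1), which carries glucose across the blood-brain barrier, in endothelial cells, and the 3 WT libraries from littermates. Each library has its own animal number. The labels name neither the Cre driver, the deleted exons, the sorting antibody nor the sex. Total counts were 31874662 to 39424384 per library. Slc2a1 itself was at 4348 ± 927 CPM in the libraries labelled GLUT1EC-/- and 4212 ± 249.8 CPM in WT (SD, n = 3 each), where CPM is the count divided by the scaled library size. The difference was 0.05 (log2; SE 0.18) with an edgeR adjusted p of 0.921. The targeted gene thus gives no check of the labels, and the directions below are those of the labels. The library labelled GLUT1EC-/- 2 stood apart in its scaling factor, 0.884 against 1.01 to 1.05 in the other 5. The labelled cell type was present: the 10 endothelial markers summed to 15273 to 16687 CPM in the libraries labelled GLUT1EC-/- and 16832 to 17793 CPM in WT.

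Mouse blood holds classical monocytes, which carry much Ly6C and enter inflamed tissue through the chemokine receptor CCR2, and non-classical monocytes, which carry little Ly6C. Non-classical monocytes depend on the nuclear receptor NR4A1, stay inside vessels and crawl on the luminal face of the endothelium, using the integrin LFA-1 and the fractalkine receptor CX3CR1. In the brain they are cells of the blood, distinct from the resident microglia. In bulk RNA, fewer cells of a type and less RNA per cell cannot be told apart.

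The promoters of the 3 receptor genes with the lowest level in the libraries labelled GLUT1EC-/- relative to WT are shown because these genes varied together. Each window runs from 250 bases before to 50 bases after the RefSeq start site on GRCm38.p6 and is read along the gene's strand. Capitals mark AGGAAGT on either strand, a form of the site bound by ETS factors such as the myeloid factor PU.1. Cd300e is at chr11:115061990-115062289 (minus strand), Emr4 at chr17:55749734-55750033 (plus strand) and Treml4 at chr17:48264045-48264344 (plus strand).
Cd300e: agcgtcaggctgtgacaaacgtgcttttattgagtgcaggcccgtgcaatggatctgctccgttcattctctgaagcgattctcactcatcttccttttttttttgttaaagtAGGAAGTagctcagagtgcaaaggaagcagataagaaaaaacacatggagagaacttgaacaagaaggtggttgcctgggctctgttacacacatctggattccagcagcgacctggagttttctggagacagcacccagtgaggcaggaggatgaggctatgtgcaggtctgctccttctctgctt
Emr4: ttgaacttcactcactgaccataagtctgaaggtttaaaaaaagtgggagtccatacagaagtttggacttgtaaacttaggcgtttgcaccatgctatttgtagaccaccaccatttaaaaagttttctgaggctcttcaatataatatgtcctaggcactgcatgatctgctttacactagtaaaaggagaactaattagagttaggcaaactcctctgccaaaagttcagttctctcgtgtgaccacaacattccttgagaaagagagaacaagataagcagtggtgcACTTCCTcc
Treml4: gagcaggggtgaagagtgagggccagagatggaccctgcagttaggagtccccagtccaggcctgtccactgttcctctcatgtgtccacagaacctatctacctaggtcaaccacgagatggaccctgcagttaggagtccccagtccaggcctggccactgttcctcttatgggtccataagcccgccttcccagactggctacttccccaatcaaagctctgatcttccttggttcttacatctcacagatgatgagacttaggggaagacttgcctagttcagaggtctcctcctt
AGGAAGT was in a window of 5 of the 9 genes (Cd300e, Emr4, Spn, Ly6c2 and Ptprc), and in a window of 10.7% of the 27025 genes of the RefSeq table. TTGCNNAA, a form of the C/EBP site, was in a window of 3 of the 9 (Emr4, Ear2 and Plac8) and of 12.2% of all genes. AAAGGTCA, the monomer site of NR4A1, was in 0 of the 9 and in 1.7% of all genes. Both strands were searched, the 3 motifs do not overlap one another in these windows, and they were chosen after the promoters had been searched. A match describes letters only.

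Cd300e, Emr4 and Treml4, the receptors of the set, were present in every WT library and near the counting limit in the libraries labelled GLUT1EC-/-. Cd300e encodes an activating receptor of the CD300 family on monocytes (chromosome 11, 115051917 to 115062177, GRCm38, minus strand, 4 exons). It had 9, 1 and 4 counts in the libraries labelled GLUT1EC-/- 1 to 3, against 188, 341 and 183 counts in WT 1 to 3. As levels these are 0.235, 0.0299 and 0.108 CPM in the libraries labelled GLUT1EC-/- and 5.82, 9.96 and 4.51 CPM in WT. The groups lay far apart, with WT 2 the highest of the WT libraries and GLUT1EC-/- 1 the highest of its group. The level pooled over libraries labelled GLUT1EC-/- was 1.94% of that in WT, with an exact interval of 1.05% to 3.27% (level 95%), which covers counting error only.

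Emr4, now named Adgre4, encodes an adhesion receptor of the EGF-TM7 family on mouse myeloid cells (chromosome 17, 55749984 to 55853662, plus strand, 17 exons). It had 17, 3 and 8 counts in the libraries labelled GLUT1EC-/- and 322, 658 and 230 counts in WT. Treml4, a receptor of the TREM family that binds dead cells, lies on the same chromosome (48264295 to 48275360, plus strand, 6 exons). It had 20, 3 and 8 counts in the libraries labelled GLUT1EC-/- and 296, 738 and 247 counts in WT. Both genes repeated the order of Cd300e within each group, with WT 2 above WT 1 and WT 3 and GLUT1EC-/- 2 the lowest library of all. The pooled level in the libraries labelled GLUT1EC-/- was 2.28% of WT for Emr4 (1.51% to 3.31%) and 2.39% for Treml4 (1.61% to 3.4%). The lowest count of any of the 9 genes was 1, for Cd300e, so the word lost would overstate even these 3: each was counted in every library.

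Ear2 and Spn were also lower in every library labelled GLUT1EC-/- than in any WT library, by smaller factors. Ear2 encodes a secreted ribonuclease of the eosinophil-associated family (chromosome 14, 44102654 to 44103534, plus strand, 2 exons), so it is no receptor. It was at 0.627, 0.359 and 0.758 CPM in the libraries labelled GLUT1EC-/- and 5.51, 11.7 and 5.03 CPM in WT, and the pooled level was 8.08% of WT (6.16% to 10.4%). Spn encodes CD43, a mucin-like surface protein of leukocytes that is dense on non-classical monocytes and also found on T and NK cells (chromosome 7, 127132232 to 127137823, minus strand, 4 exons). Spn was at 3.84, 0.747 and 1.35 CPM in the libraries labelled GLUT1EC-/- and 13.4, 22.8 and 10.2 CPM in WT, and the pooled level was 13.5% of WT (11.6% to 15.5%).

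**Figure D1:**
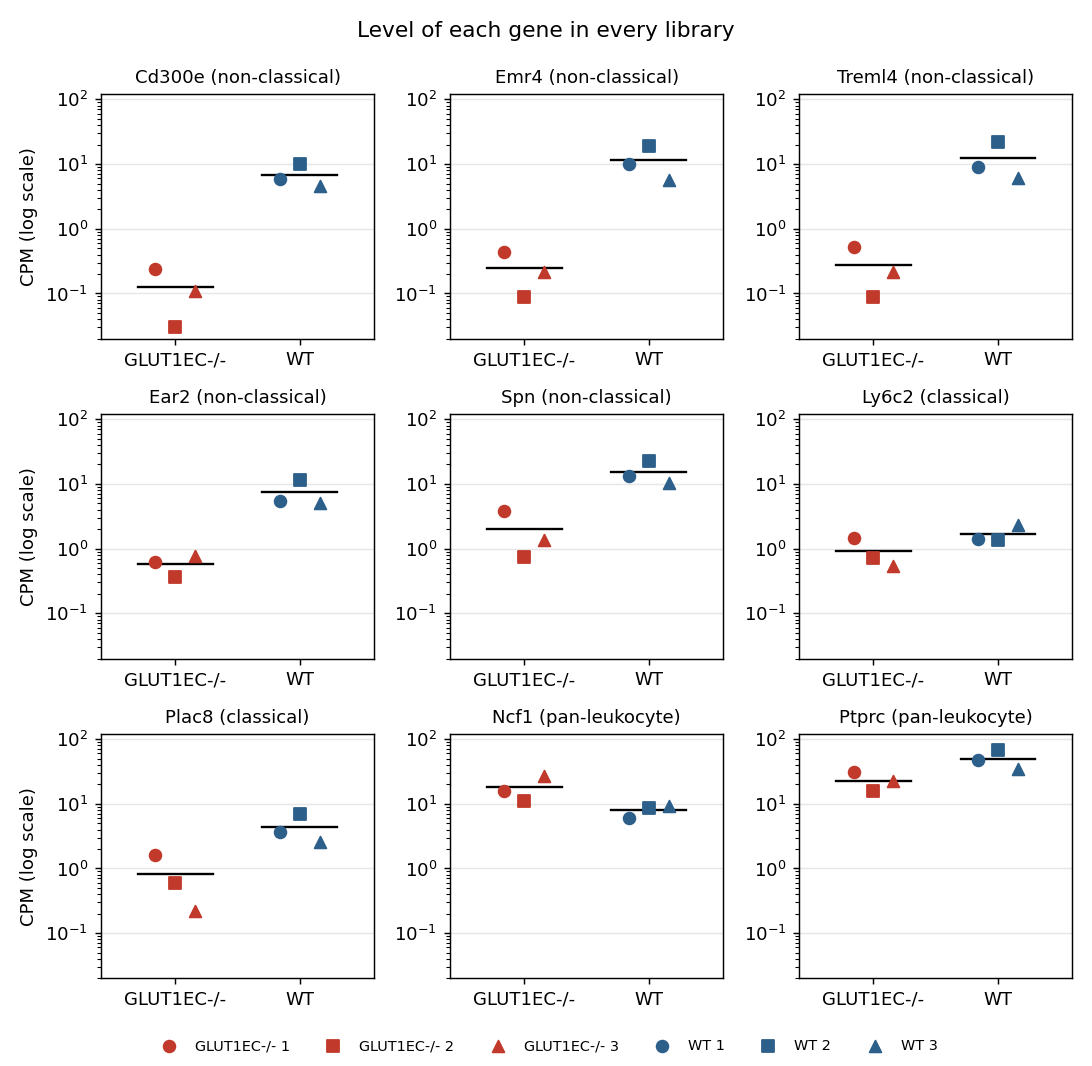
Level of the 9 genes in every library, in CPM on a log scale, with the 3 libraries labelled GLUT1EC-/- left of the 3 WT libraries in each panel and a bar at each group mean. The groups are separate for 8 genes and overlap for Ly6c2, and Ncf1 is the gene whose libraries labelled GLUT1EC-/- lie above WT.

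The classical and general leukocyte genes did not share one direction. Plac8, a small cysteine-rich protein of myeloid and lymphoid cells, was at 1.64, 0.598 and 0.217 CPM in the libraries labelled GLUT1EC-/- and 3.62, 7.07 and 2.61 CPM in WT, without overlap. Ly6c2, which with Ly6c1 encodes the Ly6C antigen, was at 1.46, 0.717 and 0.541 CPM in the libraries labelled GLUT1EC-/- and 1.42, 1.34 and 2.34 CPM in WT. Its groups overlap, because GLUT1EC-/- 1 lay above WT 1 and WT 2. Ptprc, the leukocyte phosphatase CD45, was at 30.7, 16 and 22.2 CPM in the libraries labelled GLUT1EC-/- and 47.1, 66.7 and 34 CPM in WT, so the groups are next to each other without overlap. Ncf1, the cytosolic organiser of the phagocyte NADPH oxidase, went the other way, at 16, 11.1 and 27.1 CPM in the libraries labelled GLUT1EC-/- and 6.0, 8.53 and 9.26 CPM in WT.

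On the log2 scale the fitted fold changes of the non-classical genes were -5.69 for Cd300e (SE 0.58), -5.49 for Emr4 (SE 0.63), -5.43 for Treml4 (SE 0.68), -3.65 for Ear2 (SE 0.45) and -2.95 for Spn (SE 0.58). Those of the others were -2.42 for Plac8 (SE 0.67), -1.1 for Ptprc (SE 0.3), -0.91 for Ly6c2 (SE 0.46) and 1.19 for Ncf1 (SE 0.33). The median was -5.43 over the 5 non-classical genes and -1.0 over the other 4, against 0.01 over the 14838 genes tested. Groups did not overlap for 7 genes that were lower and 1 that was higher, while 11.2% of all tested genes had lower and 11.7% higher groups without overlap. The choice of the genes rests on this contrast, so nothing is read from that count. Leaving out GLUT1EC-/- 1 gave -6.51 for Cd300e, -6.19 for Emr4, -6.27 for Treml4, -3.87 for Spn and -3.44 for Plac8, and leaving out WT 2 gave -4.75 for Treml4. Without GLUT1EC-/- 2, Cd300e was at -5.27.

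**Figure D2:**
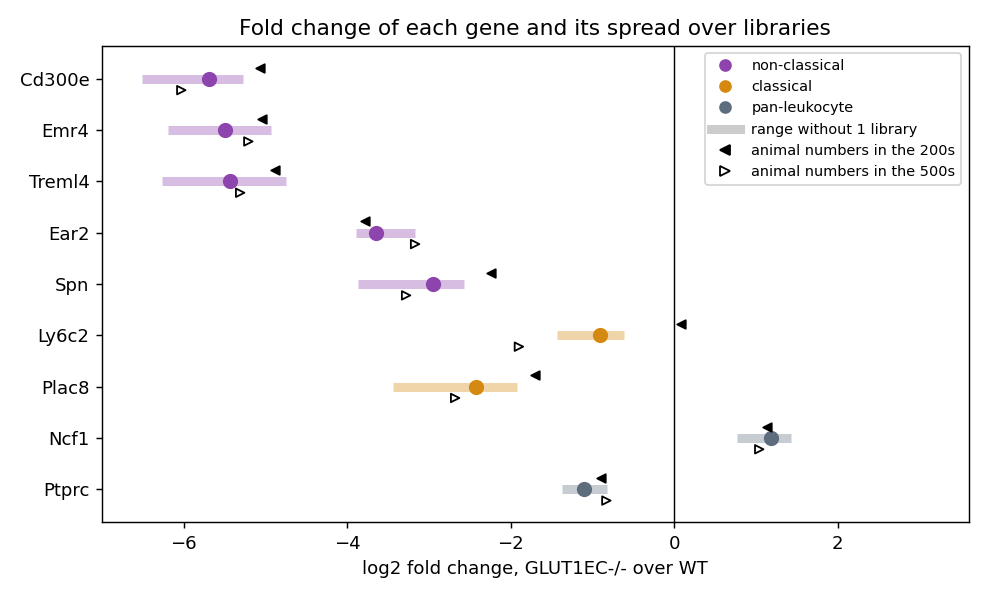
Fitted log2 fold change of each gene, GLUT1EC-/- over WT (large points, coloured by class), with the range when 1 library is left out (pale bars) and the log2 ratio of mean CPM within the animal numbers of the 200s (filled triangles) and the 500s (open triangles). The triangles of the 5 non-classical genes all lie below -2, and those of Ly6c2 lie on either side of 0.

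The animal numbers fall into the 200s (GLUT1EC-/- 1 with WT 1 and WT 2) and the 500s (GLUT1EC-/- 2 and GLUT1EC-/- 3 with WT 3), and the labels do not say what these numbers stand for. Within the 200s the log2 ratio of mean CPM was -5.07 to -2.24 over the non-classical genes, with a median of -4.88, and the median of the other 4 was -0.4. Within the 500s it was -6.03 to -3.17, with a median of -5.21, and the median of the other 4 was -1.36. By the counts of Xist and Ddx3y, GLUT1EC-/- 3 and WT 3 were male and the other 4 libraries female. The median over the non-classical genes was -4.71 between the 2 male libraries and -5.65 among the 4 female ones. For all 5 non-classical genes every library labelled GLUT1EC-/- lay below every WT library. A lower value within each number series and each sex was therefore fixed in advance, and only the sizes are given here.

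Within a group the genes also varied together. WT 2 was 1.93 to 2.83 times the mean of WT 1 and WT 3 for the 5 non-classical genes, 2.27 times for Plac8 and 1.65 times for Ptprc, but 1.12 times for Ncf1 and 0.714 times for Ly6c2. GLUT1EC-/- 1 was 2.9 to 3.65 times the mean of the other libraries labelled GLUT1EC-/- for Cd300e, Emr4, Treml4 and Spn, 4.04 times for Plac8, and 1.12 times for Ear2. For Ly6c2 it was 2.32 times, for Ptprc 1.61 times and for Ncf1 0.838 times. Per length of the principal transcript, the WT levels ran from 10.5 ± 3.5 CPM per kb for Ptprc and 10.3 ± 5.14 for Ear2 through 7.03 ± 4.7 for Treml4 and 4.13 ± 1.75 for Spn to 3.33 ± 1.98 for Emr4, 3.24 ± 1.36 for Cd300e and 2.07 ± 0.674 for Ly6c2 (SD, n = 3 each). Plac8 and Ncf1 lay between Spn and Ly6c2 in WT, at 3.62 ± 1.91 and 2.92 ± 0.629 CPM per kb. The ranges over the WT libraries of all neighbours in this order overlapped. In the libraries labelled GLUT1EC-/- the order was Ncf1 at 6.64 ± 3.01 CPM per kb, Ptprc at 4.88 ± 1.57 and Ly6c2 at 1.1 ± 0.595, then Ear2 at 0.808 ± 0.283, Plac8 at 0.67 ± 0.604 and Spn at 0.529 ± 0.438, with Treml4, Emr4 and Cd300e last at 0.158 ± 0.127, 0.0716 ± 0.0514 and 0.0596 ± 0.0496. Here Ptprc (lowest library 3.4) and Ly6c2 (highest 1.78) did not overlap, and the other neighbours did.

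A ratio of counts within a library does not depend on the scaling between libraries, and Ptprc, made by leukocytes in general, is a common denominator. The summed counts of Cd300e, Emr4 and Treml4 were 3.92, 1.31 and 2.44 per 100 Ptprc counts in the libraries labelled GLUT1EC-/-, against 53.0, 76.1 and 47.8 in WT. The 3 receptors were therefore lower by more than Ptprc in every library labelled GLUT1EC-/-. Ear2 was at 2.57 ± 0.743 per 100 Ptprc counts in the libraries labelled GLUT1EC-/- and 14.6 ± 2.89 in WT (SD, n = 3 each). Spn was at 7.77 ± 4.18 in the libraries labelled GLUT1EC-/- and 30.8 ± 2.96 in WT, and Plac8 at 3.36 ± 2.22 in the libraries labelled GLUT1EC-/- and 8.65 ± 1.68 in WT. These 3 genes too had separate groups in the ratio. Ly6c2 was at 3.9 ± 1.27 in the libraries labelled GLUT1EC-/- and 3.97 ± 2.57 in WT, so its share of the Ptprc count differed by less than the spread between libraries. That holds for Ptprc as denominator only: per 100 Laptm5 counts Ly6c2 was at 0.65 ± 0.38 in the libraries labelled GLUT1EC-/- and 1.45 ± 0.496 in WT, and per 100 Csf1r counts at 0.469 ± 0.28 in the libraries labelled GLUT1EC-/- and 0.938 ± 0.373 in WT. Ncf1 was at 81.3 ± 36.4 per 100 Ptprc counts in the libraries labelled GLUT1EC-/- and 17.6 ± 8.36 in WT, a 4.62-fold ratio. With Ptprc itself lower in the libraries labelled GLUT1EC-/-, that ratio is larger than the 1.81-fold found per Laptm5 count and the 1.92-fold per Csf1r count. Microglia also make Ptprc and Csf1r, so these ratios mix their RNA with that of blood cells. The part of microglia in the Laptm5 count was not tested either. The fitted log2 fold changes of Laptm5 and Csf1r were 0.29 (SE 0.17) and 0.21 (SE 0.25), against -1.1 for Ptprc. Against Laptm5, another general leukocyte gene, the 3 receptors were at 0.872, 0.169 and 0.311 per 100 counts in the libraries labelled GLUT1EC-/- and 24.3, 37.6 and 13.8 in WT.

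**Figure D3:**
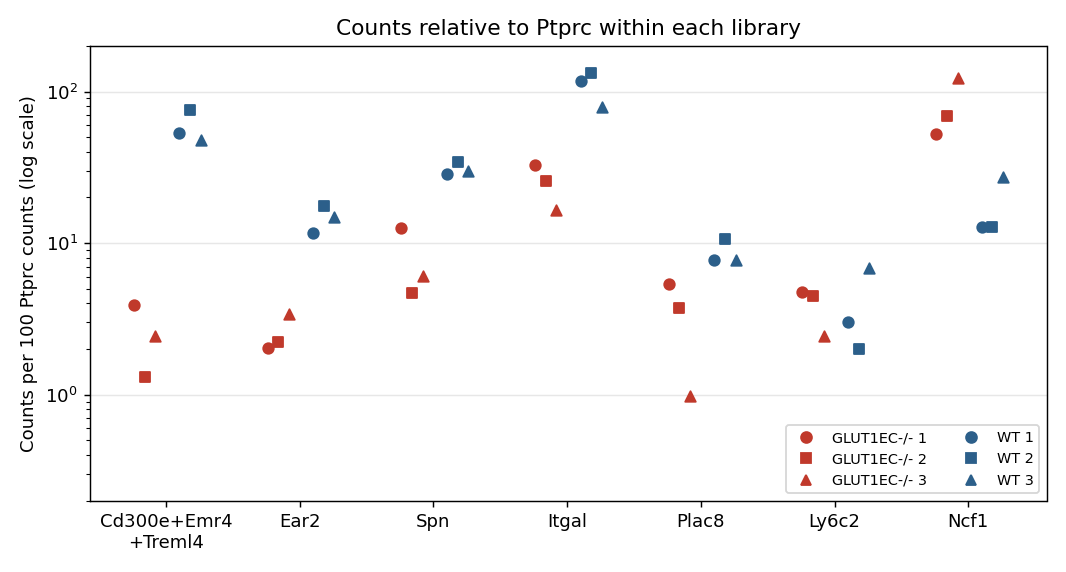
Counts per 100 Ptprc counts in each library, on a log scale, with the libraries labelled GLUT1EC-/- left of the WT libraries for each gene. The 3 receptors lie at 1.31 to 3.92 in the libraries labelled GLUT1EC-/- and at 47.8 to 76.1 in WT, Ly6c2 overlaps, and Ncf1 is higher in the libraries labelled GLUT1EC-/-.

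Several of the counts share sequence or position with other genes. In GENCODE M21, 15.8% of the 100-base stretches of the Ly6c2 transcript, the length of a read here, also occur in Ly6c1. Ly6c1 is an abundant brain endothelial gene, at 2338, 3647 and 2217 CPM in the libraries labelled GLUT1EC-/- and 1559, 1663 and 2398 CPM in WT. The Ly6c2 count was 0.0197% to 0.0625% of the Ly6c1 count in the libraries labelled GLUT1EC-/- and 0.0808% to 0.0976% in WT, so a small share of misplaced Ly6c1 reads would be as large as the Ly6c2 count, which is therefore uncertain. Of Ear2, 13.9% of these stretches occur in Ear10 or a pseudogene. Ear3 and Ear12 had identical counts in every library, at 22, 12 and 28 in the libraries labelled GLUT1EC-/- and 168, 356 and 189 in WT, close to those of Ear2 (24, 12 and 28, against 178, 399 and 204). Ear3 and Ear12 have no transcript in that annotation, so the stretches they share with Ear2 were not counted, and the levels of these 3 ribonuclease genes are uncertain. Ncf1 overlaps exons of Gtf2ird2 on the other strand, and the strand setting of the counting is not given in the sources used here. Gtf2ird2 was at 5.17 to 5.53 CPM in the libraries labelled GLUT1EC-/- and 6.43 to 7.54 CPM in WT. The other 6 genes share no such stretch with another annotated transcript and no exon position with another gene.

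Relatives of the receptors did not all follow them. By edgeR's quasi-likelihood test, 1.31% of the 14838 genes had a Benjamini-Hochberg adjusted p under 0.05 (0.863% higher and 0.445% lower), which is 194 genes. Of the same 14838 genes, 879 passed by DESeq2 and 2148 had an unadjusted p under 0.05 by edgeR. The list counts below by these 2 measures are to be read beside those numbers. Without WT 1 the number called by edgeR was 0, so each edgeR call named below was lost there. In the CD300 family, 1 of 5 tested relatives passed by edgeR, 4 by DESeq2 and 5 had an unadjusted p under 0.05. The 1 that fell by edgeR was Cd300ld, a receptor of myeloid cells, at 2.75 ± 0.748 CPM in the libraries labelled GLUT1EC-/- and 14.4 ± 6.68 CPM in WT (log2 fold change -2.39, SE 0.37, edgeR adjusted p = 0.0264). For Cd300lb the value was -1.94 (SE 0.44, edgeR adjusted p = 0.0864), and for Cd300a, an inhibitory receptor, -1.37 (SE 0.39, edgeR adjusted p = 0.158), both with groups that were lower without overlap. For Cd300lf, also inhibitory, it was 2.01 (SE 0.52, edgeR adjusted p = 0.127) and for Cd300lg, which endothelium makes, 0.76 (SE 0.26, edgeR adjusted p = 0.228). In the TREM family, Trem1, which amplifies inflammatory signals in neutrophils and monocytes, fell to 2.13 ± 0.409 CPM in the libraries labelled GLUT1EC-/-, against 10.2 ± 6.02 CPM in WT (log2 fold change -2.26, SE 0.42, edgeR adjusted p = 0.0485). Trem2, the lipid-sensing receptor of microglia, rose to 25.5 ± 6.7 CPM in the libraries labelled GLUT1EC-/-, against 9.3 ± 1.79 CPM in WT (log2 fold change 1.45, SE 0.23, edgeR adjusted p = 0.0316). The other 3 relatives did not pass by edgeR, and 3 of the 5 in the family passed by DESeq2. Trem3 had the lowest value of the 5, at 0.0522, 0.239 and 0.0812 CPM in the libraries labelled GLUT1EC-/- and 0.928, 2.4 and 0.37 CPM in WT, without overlap (-3.3 on the log2 scale, SE 0.84; edgeR adjusted p = 0.122). Treml1 was at -1.17 (SE 0.68) and Treml2 at 0.42 (SE 0.33), as log2 fold changes with overlapping groups. Emr1, the F4/80 antigen of macrophages, and Cd97, a broad leukocyte and vascular adhesion receptor, are the EGF-TM7 relatives of Emr4. Their log2 fold changes were 0.36 (SE 0.37) and -0.3 (SE 0.16), with 0 of 2 called by edgeR or DESeq2 and 0 at an unadjusted p under 0.05. Ear3 and Ear12 fell by 3.57 (log2; edgeR adjusted p = 0.0164), on counts close to those of Ear2. The calls of Cd300ld, Trem1, Trem2, Ear3 and Ear12 were also lost without WT 2, WT 3 or GLUT1EC-/- 1, and that of Trem1 without GLUT1EC-/- 3. Of 7 tested Ly6 relatives, 0 passed by edgeR and 1 by DESeq2, with 2 at an unadjusted p under 0.05.

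**Figure D4:**
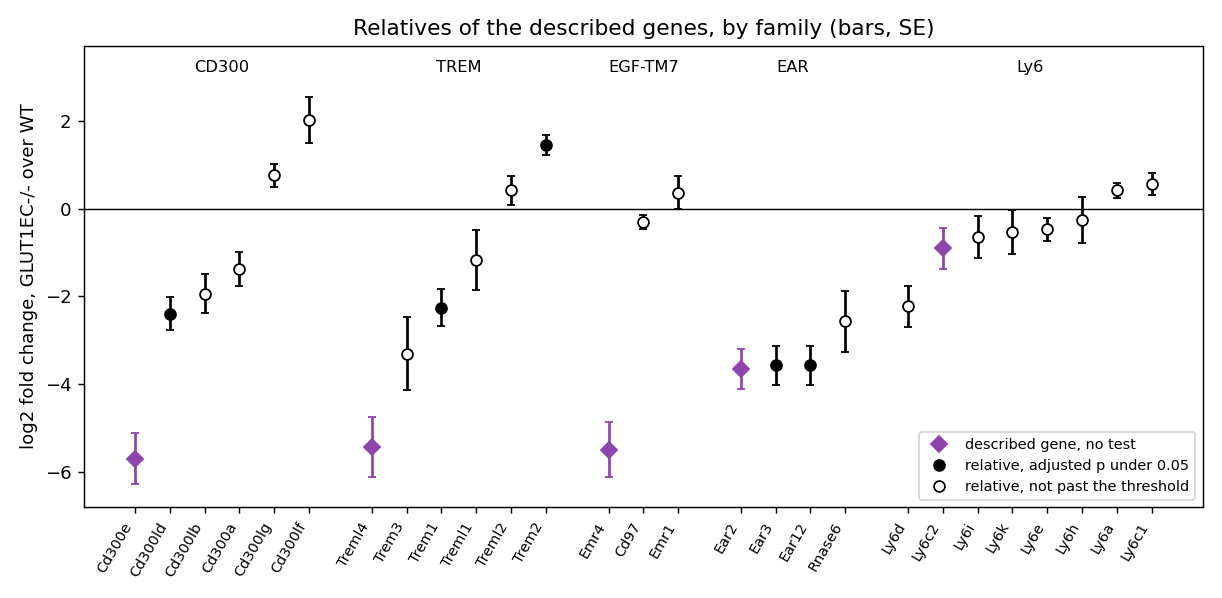
Log2 fold change, GLUT1EC-/- over WT, of the described genes (diamonds, no test) and their tested relatives by family, with bars for the SE; filled circles are relatives with an edgeR adjusted p under 0.05. In the CD300 and TREM families the points run from below -5 to above 1, and the EGF-TM7 relatives lie near 0.

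Among 12 other genes tied to non-classical monocytes, 2 fell, 1 rose and 9 did not pass, with a median log2 fold change of -0.12. Itgal, the CD11a chain of LFA-1, was at 10, 4.12 and 3.68 CPM in the libraries labelled GLUT1EC-/- and 55.7, 89.1 and 26.7 CPM in WT (log2 fold change -3.26, SE 0.53; edgeR adjusted p = 0.0316). Without GLUT1EC-/- 1 it was at -3.87 (edgeR adjusted p = 0.0515), and without GLUT1EC-/- 2 at -3.06 (edgeR adjusted p = 0.155). S1pr5, a sphingosine-1-phosphate receptor needed for non-classical monocytes and NK cells to leave the bone marrow, was at 0.287, 0.209 and 0.379 CPM in the libraries labelled GLUT1EC-/- and 2.44, 4.94 and 1.95 CPM in WT (log2 fold change -3.39, SE 0.48, edgeR adjusted p = 0.022). Both genes had WT 2 as their highest library. Ace, angiotensin-converting enzyme, which endothelium also makes, rose by 1.1 (log2), at 789 ± 53.9 CPM in the libraries labelled GLUT1EC-/- and 368 ± 32.9 CPM in WT (SE 0.14, edgeR adjusted p = 0.0164). The calls of Itgal, S1pr5 and Ace were lost without WT 1, WT 2, WT 3 or GLUT1EC-/- 1. Nr4a1 is also made by endothelium, and Cx3cr1 by microglia. The log2 fold change of Nr4a1 was -0.28 (SE 0.15, edgeR adjusted p = 0.449) and that of Cx3cr1 0.78 (SE 0.45, edgeR adjusted p = 0.478). Cx3cr1 was at 48.6, 16.4 and 75.8 CPM in the libraries labelled GLUT1EC-/- and 22.9, 27.2 and 31.7 CPM in WT. The other 7 genes that did not pass were on both sides of 0. Fcgr4, the activating Fc receptor of non-classical monocytes, was at 2.74, 1.31 and 3.9 CPM in the libraries labelled GLUT1EC-/- and 2.17, 3.07 and 2.46 CPM in WT (0.05 on the log2 scale, SE 0.4). Eno3 was at 0.17 (SE 0.25), Gngt2 at 0.36 (SE 0.24) and Pglyrp1 at 0.59 (SE 0.16), the last with higher groups without overlap, as log2 fold changes. Cd36 was at -0.85 (SE 0.23), Itgax at -0.98 (SE 0.33) and Cebpb at -0.52 (SE 0.18), each with lower groups without overlap. By DESeq2, 5 of the 12 genes passed.

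Of 11 tested genes tied to classical monocytes, 1 rose, 0 fell and 10 did not pass, with a median of 0.39. The gene that rose was Fn1, fibronectin, at 8932 ± 664 CPM in the libraries labelled GLUT1EC-/- and 4723 ± 296 CPM in WT (0.92 on the log2 scale, SE 0.14, edgeR adjusted p = 0.0259), a matrix protein that many cells of the vessel wall make. Ccr2, the receptor that defines classical monocytes, was low in all libraries, at 3.86, 0.538 and 2.6 CPM in the libraries labelled GLUT1EC-/- and 1.67, 0.935 and 2.24 CPM in WT (log2 fold change 0.53, SE 0.63, edgeR adjusted p = 0.734). Among 13 shared myeloid genes, 2 rose, both Fc receptors: the log2 rise was 1.09 for Fcgr3 (edgeR adjusted p = 0.0262) and 0.99 for Fcgr2b (edgeR adjusted p = 0.0407). The calls of Fn1, Fcgr3 and Fcgr2b were lost without WT 1, WT 2, WT 3 or GLUT1EC-/- 1, and that of Fcgr2b also without GLUT1EC-/- 3. Csf1r, the growth factor receptor of monocytes, macrophages and microglia, was at 215 ± 79.1 CPM in the libraries labelled GLUT1EC-/- and 186 ± 23.4 CPM in WT (edgeR adjusted p = 0.73).

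Of 15 other general leukocyte genes, 0 passed by edgeR, 2 by DESeq2 and 3 had an unadjusted p under 0.05, with a median of -0.23. By fitted value 10 were lower and 5 higher. Laptm5 and Lcp1, the most abundant, had log2 fold changes of 0.29 (SE 0.17) and -0.23 (SE 0.24). Cytip, Lsp1 and Coro1a were lower without overlap, at -1.54 (SE 0.42), -1.26 (SE 0.27) and -0.68 (SE 0.28). The groups of the rest of the list overlapped. Of all tested genes, 11.2% had lower groups without overlap. Among the 4 other subunit genes of the oxidase that Ncf1 serves, 0 passed by edgeR, 2 by DESeq2 and 2 had an unadjusted p under 0.05. Cybb, the catalytic subunit, was at 11.2 ± 2.32 CPM in the libraries labelled GLUT1EC-/- and 38.1 ± 18.9 CPM in WT (log2 fold change -1.77, SE 0.34, edgeR adjusted p = 0.0529). Cyba, its partner in the membrane, was at 50.7 ± 8.45 CPM in the libraries labelled GLUT1EC-/- and 45.7 ± 1.38 CPM in WT. Ncf1 was the 1 of the 5 oxidase genes for which every library labelled GLUT1EC-/- lay above every WT library. Of 10 vessel wall ligands and growth factors for monocytes, 0 passed by edgeR, 2 by DESeq2 and 5 had an unadjusted p under 0.05, with a median of -0.09. Icam1, the ligand of LFA-1, was at 0.07 (SE 0.28) and Vcam1 at -0.54 (SE 0.21), as log2 fold changes. Over these 11 lists, 11 of 87 tested genes passed. That number was 0 without WT 1, WT 2 or WT 3, 1 without GLUT1EC-/- 1, 26 without GLUT1EC-/- 2 and 1 with the number series as a term.

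Likeness to the mean profile of the non-classical genes over the 6 libraries was measured as the root mean squared difference of log2(CPM + 0.5), each profile centred on its own mean. Tested genes averaging 1 CPM or more were ranked by it, and the 8 closest were Itgal at 0.335, E030002O03Rik (Olfm5 in RefSeq) at 0.394, Ear3 and Ear12 at 0.402, Col14a1 at 0.546, Cd300ld at 0.622, S1pr5 at 0.67 and Gkn3 at 0.718. Ear3 and Ear12 have identical counts, close to those of Ear2, which is part of the mean profile, so they are 1 signal in 2 places and their likeness is largely built in. The 5 genes themselves were at 0.144 (Cd300e) to 0.414 (Spn). They were chosen on the genotype contrast, so a lower level in the libraries labelled GLUT1EC-/- is built in for all 8 close genes. Of the 8, Itgal, Cd300ld, S1pr5 and the ribonuclease genes had their highest level in WT 2, as the 5 genes did, while E030002O03Rik, Col14a1, a collagen gene, and Gkn3, a marker of arterial endothelium, had theirs in WT 1. E030002O03Rik was at 0.418, 0.179 and 0.244 CPM in the libraries labelled GLUT1EC-/- and 9.59, 8.76 and 2.96 CPM in WT. All 8 were kept under RLE scaling, 7 under library size alone, 6 with a pseudocount of 1 and 5 without WT 2. Gkn3, at a log2 fold change of -3.59, was at -4.24 without GLUT1EC-/- 3.

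**Figure D5:**
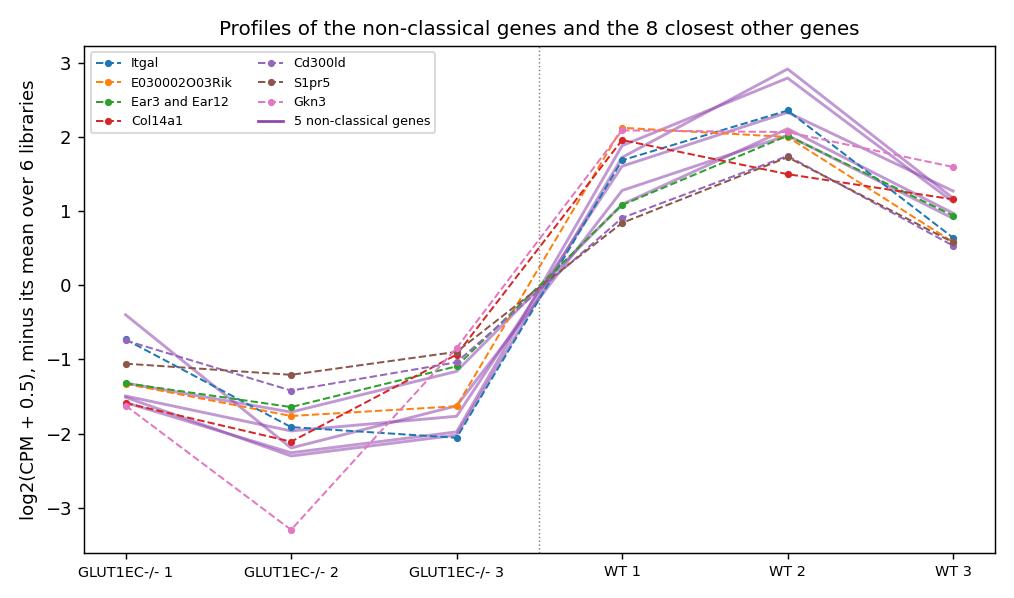
Profiles over the 6 libraries, log2(CPM + 0.5) minus the mean of each gene, for the 5 non-classical genes (solid) and the 8 closest other genes (dashed; lines only join the points of a gene, and libraries have no order). WT 2 is the highest library for the solid lines. All profiles are lower in the libraries labelled GLUT1EC-/-, a direction that the choice of the 5 genes and the ranking by closeness to them build in.

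Markers of other cells that the preparation could hold differed in direction. Microglia markers summed to 659 to 1464 CPM in the libraries labelled GLUT1EC-/- and 365 to 457 CPM in WT. By edgeR 3 of 12 were called higher (C1qc, C1qb and Trem2), and the median log2 fold change was 1.2. By fitted value 10 were higher and 2 lower. The call of C1qc was lost without WT 1, WT 2 or WT 3, and those of C1qb and Trem2 were lost there and also without GLUT1EC-/- 1. In GLUT1EC-/- 2, C1qa, C1qb and C1qc made 146, 153 and 174 of the 659 CPM. There P2ry12 (10.7 CPM), Tmem119 (7.32), Gpr34 (1.05), Fcrls (28.8), Olfml3 (13.7) and Siglech (6.87) lay below every WT library. NK cell markers summed to 1.65 to 3.39 CPM in the libraries labelled GLUT1EC-/- and 5.66 to 7.51 CPM in WT. Of the 5 tested, Gzma and Prf1, cytotoxic granule proteins, fell, with log2 changes of -4.13 (edgeR adjusted p = 0.0432) and -3.84 (edgeR adjusted p = 0.0499). Gzma was at -5.25 without GLUT1EC-/- 3, and Prf1 at -5.02 without GLUT1EC-/- 1, where its call was lost (edgeR adjusted p = 0.0864). Both calls were lost without WT 1, WT 2, WT 3 or GLUT1EC-/- 1, and that of Prf1 also without GLUT1EC-/- 3. The 4 NK receptors were too low to test. Ncr1 was at 0 to 0.104 CPM in the libraries labelled GLUT1EC-/- and 0.124 to 0.222 CPM in WT, without overlap. Klrd1 was at 0.444, 0 and 0 CPM in the libraries labelled GLUT1EC-/- and 0.278, 0.0876 and 0.197 CPM in WT, and Klrb1c at 0.339, 0.149 and 0 CPM in the libraries labelled GLUT1EC-/- and 0.309, 0 and 0.222 CPM in WT. Klre1 was at 0.235, 0.0598 and 0.0271 CPM in the libraries labelled GLUT1EC-/- and 0.0928, 0.117 and 0.296 CPM in WT. These 3 overlapped, with GLUT1EC-/- 1 above all WT libraries for Klrd1 and Klrb1c. B cell markers summed to 4.99 to 9.45 CPM in the libraries labelled GLUT1EC-/- and 16.5 to 18.9 CPM in WT. Cd79a was the 1 of 5 tested that edgeR called lower, a call lost without WT 1, WT 2, WT 3 or GLUT1EC-/- 1. By fitted value all 5 were lower. The summed markers of microglia were thus higher, and those of NK and B cells lower, in every library labelled GLUT1EC-/- than in any WT library. For microglia this holds for the sum and not for each marker. Neutrophil markers summed to 20.8 to 26.8 CPM in the libraries labelled GLUT1EC-/- and 18.3 to 22.5 CPM in WT. Of these, Csf3r alone was at 10.2 to 24.8 CPM in the libraries labelled GLUT1EC-/- and 10.7 to 11.7 CPM in WT. Retnlg and Ltf were lower without overlap (log2 fold changes -1.76, SE 0.66, and -1.13, SE 0.4), and the other counted neutrophil markers overlapped. Border-associated macrophage markers summed to 91.4 to 112 CPM in the libraries labelled GLUT1EC-/- and 65.3 to 90.2 CPM in WT. The macrophage sums also did not overlap. The same was true of astrocyte sums, at 124 to 148 CPM in the libraries labelled GLUT1EC-/- and 82.3 to 103 CPM in WT, and of the endothelial sums given above, which were lower in the libraries labelled GLUT1EC-/-. T cell markers summed to 7.63 to 17.5 CPM in the libraries labelled GLUT1EC-/- and 12 to 15.8 CPM in WT, and dendritic cell markers to 32.0 to 47.7 CPM in the libraries labelled GLUT1EC-/- and 47.3 to 64.5 CPM in WT. Most of the dendritic sums was Zbtb46, which endothelium also makes, at 28.2 to 44.5 CPM in the libraries labelled GLUT1EC-/- and 36.8 to 53.9 CPM in WT. Cd209a and Ccr7 were lower without overlap (log2 fold changes -2.36, SE 0.67, and -1.38, SE 0.36), and the other dendritic markers overlapped. Platelet markers summed to 21.6 to 26.2 CPM in the libraries labelled GLUT1EC-/- and 25.3 to 43.5 CPM in WT. Erythroid markers, a sign of blood in the preparation, summed to 1068, 104 and 345 CPM in the libraries labelled GLUT1EC-/- 1 to 3 and 853, 761 and 1040.5 CPM in WT 1 to 3. Hba-a1 and Hba-a2 had identical counts in every library (303 CPM each in GLUT1EC-/- 1 and 282 CPM in WT 3), so 1 signal enters these sums in 2 places. GLUT1EC-/- 1 had the highest sum, although Beta-s was higher in WT 3 (463 CPM) than in GLUT1EC-/- 1 (442 CPM). In GLUT1EC-/- 1, Cd300e, Emr4 and Treml4 were at 0.235 to 0.522 CPM, below every WT library. GLUT1EC-/- 2 was the lowest for the erythroid markers and for these 3 genes. Epx, which defines eosinophils, was at 0 counts in all 6 libraries, and eosinophil and basophil markers summed to 1.05 to 1.95 CPM in the libraries labelled GLUT1EC-/- and 1.11 to 2.39 CPM in WT. Gfap was the 1 of 6 astrocyte markers called by edgeR, as higher, while by fitted value 4 of the 6 were higher and 2 lower. The call of Gfap was lost without WT 1, WT 2 or WT 3. The 10 marker lists without a call, with 60 tested genes, had 0 calls by edgeR, 6 by DESeq2 and 15 at an unadjusted p under 0.05. Over all 14838 tested genes the last 2 numbers were 879 and 2148. The part of microglia, NK cells, B cells and blood in the levels of the 9 genes was not tested.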

How the data were processed

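Messenger RNA of sorted brain endothelial cells was sequenced in 6 libraries, 3 labelled GLUT1EC-/- and 3 WT by the genotype label. Per the labels' protocols, libraries were made with the Illumina TruSeq stranded mRNA kit and read as single ends of 100 bp. STAR, featureCounts and the build GRCm38 are named in the submitters' processing notes, while versions, annotation, strand setting and filters are not given in the sources used here. What the authors deposited are whole-number counts for each gene symbol. Replicates carry separate animal numbers.

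Counts were fitted with edgeR 4.0.16 (R 4.3.3): quasi-likelihood F test, genotype only, TMM scaling, filterByExpr (minimum count 10, total 15), robust dispersions, Benjamini-Hochberg adjustment over 14838 genes at 0.05. The fit was tested on simulated data. SEs are the log2 fold change over the square root of F. CPM are counts relative to the TMM-scaled library size. Intervals of pooled levels are exact (conditional binomial) and cover counting error only, as reads copied by PCR and not marked by molecular identifiers are no independent molecules. Gene positions, transcript lengths and shared stretches come from GENCODE M21 and promoters from RefSeq (GRCm38.p6), in which all 9 genes matched. DESeq2 1.42.0 and limma-voom (limma 3.58.1) were alternatives.

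The 9 genes, the lists and the tests were chosen with earlier results of these data known. Named genes are the 9, Slc2a1, per list up to 4 called genes or the 2 most abundant, the 8 closest profiles and family relatives. The other genes of the non-classical list, Ccr2, Csf1r, Cytip, Lsp1, Coro1a, Cd209a, Ltf and the NK receptors were added after their values were seen. Lists covered 11 sets of related genes and 15 sets of cell type markers; some results on single genes, and the oligodendrocyte markers, are not reported here.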

Additional observations from a re-analysis of the deposited data

Results flagged for a closer look

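Some genes had opposite directions in the 2 animal number series or in the 2 sexes, in every library of each, and these differences were not tested. Of the described genes this was Ly6c2, with a log2 ratio of mean CPM (GLUT1EC-/- over WT) of 0.08 in the 200s, against -1.9 in the 500s. Ly6c1, which shares sequence with it, had 0.89 in females and -0.11 in males. Among erythroid markers, Beta-s had 0.3 in the 200s, against -2.2 in the 500s; Hba-a1 0.48 and -2.22. Cd4, of T cells, had 0.62 in the 200s, against -0.59 in the 500s; Lck 0.33 and -0.56. Of the platelet genes, Itga2b had 0.33 in the 200s, against -0.86 in the 500s; Gp1bb 0.14 and -0.5. Gp1bb also had 0.31 in females and -0.6 in males. Cyba, the oxidase subunit, had -0.13 in the 200s, against 0.28 in the 500s; Abcb1a, the efflux pump P-glycoprotein, -0.08 and 0.16. Zbtb46, a transcription factor of dendritic cells and endothelium, had -0.54 in females and 0.28 in males.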

How the results depend on the processing

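All 9 genes kept their direction under every alternative run. For all but Ly6c2 the groups did not overlap, so leaving out a library or adding the series or sex term could not reverse it. Those runs therefore bear on the sizes only. Ly6c2 had a log2 ratio of 0.08 within the 200s. RLE, upper-quartile and library-size scaling left the median of all tested genes between -0.03 and 0.02 on the log2 scale (0.01 under TMM). With 1 library left out in turn, the log2 fold change ranged from -6.51 to -5.27 for Cd300e, -6.19 to -4.93 for Emr4, -6.27 to -4.75 for Treml4, -3.89 to -3.17 for Ear2, -3.87 to -2.57 for Spn, -1.44 to -0.61 for Ly6c2, -3.44 to -1.92 for Plac8, 0.77 to 1.43 for Ncf1 and -1.37 to -0.82 for Ptprc. The median of the non-classical genes minus that of the other 4 was -4.42, and -4.8 to -3.81 with 1 library left out. The log2 ratio between groups of the 5 genes' counts per Ptprc count was -3.02 (-3.37 to -2.78 with 1 library left out), -4.31 per Laptm5 count and -4.17 per Csf1r count, both chosen after seeing the data. Of the 8 closest profiles, 5 to 7 were kept with 1 library left out.

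The number of calls over all genes was less steady. It was 194 (128 higher, 66 lower), and 14 (9 and 5) with the animal number series as a term, 113 (75 and 38) with sex as a term and 879 (502 and 377) with DESeq2. With 1 library left out it ranged from 0, without WT 1 (1248 at an unadjusted p under 0.05), to 862, without GLUT1EC-/- 2 (0 to 530 higher, 0 to 332 lower). Calls in the lists of related genes numbered 11, and 7 with library size alone, 1 with the number series, 30 with DESeq2 and 0 to 26 with 1 library left out. Why these counts moved was not tested. No paired analysis was possible because the labels tie no animal of 1 group to an animal of the other. Replicate numbers recur in both groups but stand for different animal numbers. The number series was fitted as a term instead. At 1 to 28 counts per library, the levels of Cd300e, Emr4, Treml4 and Ear2 in the libraries labelled GLUT1EC-/- are limited by depth.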

Other observations

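Of the listed classical monocyte and ribonuclease genes, 4 that did not pass the threshold are given here as values, chosen after their values were seen. Hp, haptoglobin, was at 0.6, 1.55 and 0.325 CPM in the libraries labelled GLUT1EC-/- and 4.61, 12 and 2.93 CPM in WT (log2 fold change -2.99, SE 0.69; edgeR adjusted p = 0.089). F10, coagulation factor X, was at 1.49, 0.896 and 1.08 CPM in the libraries labelled GLUT1EC-/- and 3.56, 7.42 and 2.64 CPM in WT (edgeR adjusted p = 0.08). Both had WT 2 as their highest library. Vcan, the proteoglycan versican, was at 9.16, 14.3 and 6.55 CPM in the libraries labelled GLUT1EC-/- and 3.37, 3.97 and 2.22 CPM in WT (edgeR adjusted p = 0.0665). Rnase6, another secreted ribonuclease, was at 0.444, 0.0598 and 0.0812 CPM in the libraries labelled GLUT1EC-/- and 0.897, 1.11 and 1.58 CPM in WT (edgeR adjusted p = 0.139).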
